A study of Mus musculus with 4 samples.

Results

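The genes described here are those that carry a cell through mitosis: the cyclins and kinases that start it, the kinetochore and checkpoint proteins that attach chromosomes to the spindle, and the motors and scaffolds that build the spindle and split the cell. A list of 36 such genes was taken by symbol, and 35 of them had a transcript cluster (the probe group that an array reports as 1 value) paired with that symbol alone, out of 19938 genes with such a cluster. Ccnb1 was not analysed here. Expression was measured on 4 whole-transcript arrays of the CH12.F3 line, mouse B lymphoma cells that divide continuously and switch to IgA in culture. There were 2 arrays of Mbd4 KO cells, which lack the DNA glycosylase Mbd4, and 2 of control cells. Cells of both groups were grown with 6% fetal calf serum and given IL-4 at 5 ng/ml, TGF-beta at 0.2 ng/ml and CD40 ligand at 25% of the volume over 24 hours. The labels give neither the knockout allele, nor whether the Mbd4 KO cells are a single clone, nor which culture each array's RNA was taken from, although the series design calls the samples independent. The p-values and intervals therefore rest on array-to-array spread, part or all of which may be technical.

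Entry into mitosis is driven by cyclin-dependent kinase Cdk1 bound to cyclin A and cyclin B, and is reinforced by the Plk1 and Aurora kinases. The spindle checkpoint, which acts at kinetochores, holds the anaphase-promoting complex (APC/C) back until all chromosomes are attached, after which Cdc20 activates that ligase and cyclin B and securin are destroyed. Transcripts of these genes build up together in G2 under the MuvB complexes with B-Myb and FoxM1, so their level in a culture follows the share of cells in G2 and mitosis as well as transcription in each cell. In bulk RNA such as this, fewer cells in a phase and less RNA per cell cannot be told apart.

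Shared regulation of such genes is read from their promoters through the cell cycle homology region, whose core is TTTGAA and which the MuvB complexes bind, and through CCAAT boxes, which bind NF-Y. RefSeq promoter sequences (GRCm38.p6) were matched by symbol for 30 of the 36 listed genes, in 31 windows, and the 250 bases before each annotated start were searched for TTTGAA and CCAAT on both strands (TTCAAA and ATTGG on the opposite one). A TTTGAA and a CCAAT box can overlap by 1 end base. CCAAT and ATTGG can share the bases AT, as in Ube2c (-186 and -183, counted back from the annotated start), where both were counted. The 5 windows printed are those of Espl1 and Nuf2, the members with the highest and the lowest difference between the groups, and of Cdk1, Cdc20 and Kif11, in which a TTTGAA core lies close to the start behind a CCAAT box. Each is written 5′ to 3′ on the strand of its gene, with every motif match in capitals.
Espl1 (chr15:102296043-102296292, plus strand): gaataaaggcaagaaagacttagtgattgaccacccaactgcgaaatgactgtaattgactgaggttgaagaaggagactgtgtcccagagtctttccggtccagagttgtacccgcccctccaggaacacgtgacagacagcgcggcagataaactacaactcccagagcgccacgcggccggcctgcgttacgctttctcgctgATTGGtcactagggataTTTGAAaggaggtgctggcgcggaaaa
Nuf2 (chr1:169531465-169531714, minus strand): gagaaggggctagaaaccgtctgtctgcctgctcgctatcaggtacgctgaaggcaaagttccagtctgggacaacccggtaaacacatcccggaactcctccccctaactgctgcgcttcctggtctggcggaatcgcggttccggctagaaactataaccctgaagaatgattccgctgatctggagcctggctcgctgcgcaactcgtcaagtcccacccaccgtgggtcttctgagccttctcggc
Cdk1 (chr10:69352913-69353162, minus strand): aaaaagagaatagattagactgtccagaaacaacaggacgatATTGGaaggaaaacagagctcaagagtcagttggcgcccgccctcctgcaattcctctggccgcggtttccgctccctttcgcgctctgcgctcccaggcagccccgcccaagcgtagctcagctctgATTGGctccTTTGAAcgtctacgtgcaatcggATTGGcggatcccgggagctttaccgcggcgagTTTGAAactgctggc
Cdc20 (chr4:118437344-118437593, minus strand): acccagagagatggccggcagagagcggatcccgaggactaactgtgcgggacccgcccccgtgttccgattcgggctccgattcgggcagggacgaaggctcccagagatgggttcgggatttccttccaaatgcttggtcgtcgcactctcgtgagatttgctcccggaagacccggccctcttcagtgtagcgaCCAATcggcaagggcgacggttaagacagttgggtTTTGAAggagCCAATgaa
Kif11 (chr19:37376132-37376381, plus strand): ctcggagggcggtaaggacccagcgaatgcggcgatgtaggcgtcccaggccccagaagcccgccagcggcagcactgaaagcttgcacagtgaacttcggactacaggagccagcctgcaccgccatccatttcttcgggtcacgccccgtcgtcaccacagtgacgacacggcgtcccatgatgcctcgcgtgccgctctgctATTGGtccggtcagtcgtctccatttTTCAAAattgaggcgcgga

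In Espl1 the ATTGG began at position -44 and the TTTGAA at -27, counted back from the annotated start. In Cdk1 the last ATTGG began at -48 and the last TTTGAA at -15. Cdc20 held CCAAT at -53 and TTTGAA at -18, and Kif11 held ATTGG at -45 and TTCAAA at -19. Nuf2 held neither motif in this window, which says only that these letters are absent there. A CCAAT box on either strand was found in 24 of the 31 member windows (77.4%), against 33.8% of 32851 windows of all genes in the table. TTTGAA was found in 10 windows (32.3%), against 15.99% of all windows. A TTTGAA beginning in the last 30 bases with a CCAAT box before it, an arrangement chosen after the matches had been seen, was found in 7 member windows (22.6%), those of Espl1, Cdk1, Cdc20, Kif11, Top2a, Ube2c and Prc1, against 0.508% of all windows. The member windows were also rich in CpG, the dinucleotide that Mbd4 binds when methylated, with a median of 18 per 250 bases (2 to 29) against 6 in all windows. The set of all windows was not matched to the member windows in CpG content. Whether the motif shares differ from those of other CpG-rich promoters was thus not tested. The motif and CpG counts describe sequence and are not sites of measured binding.

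**Figure D1:**
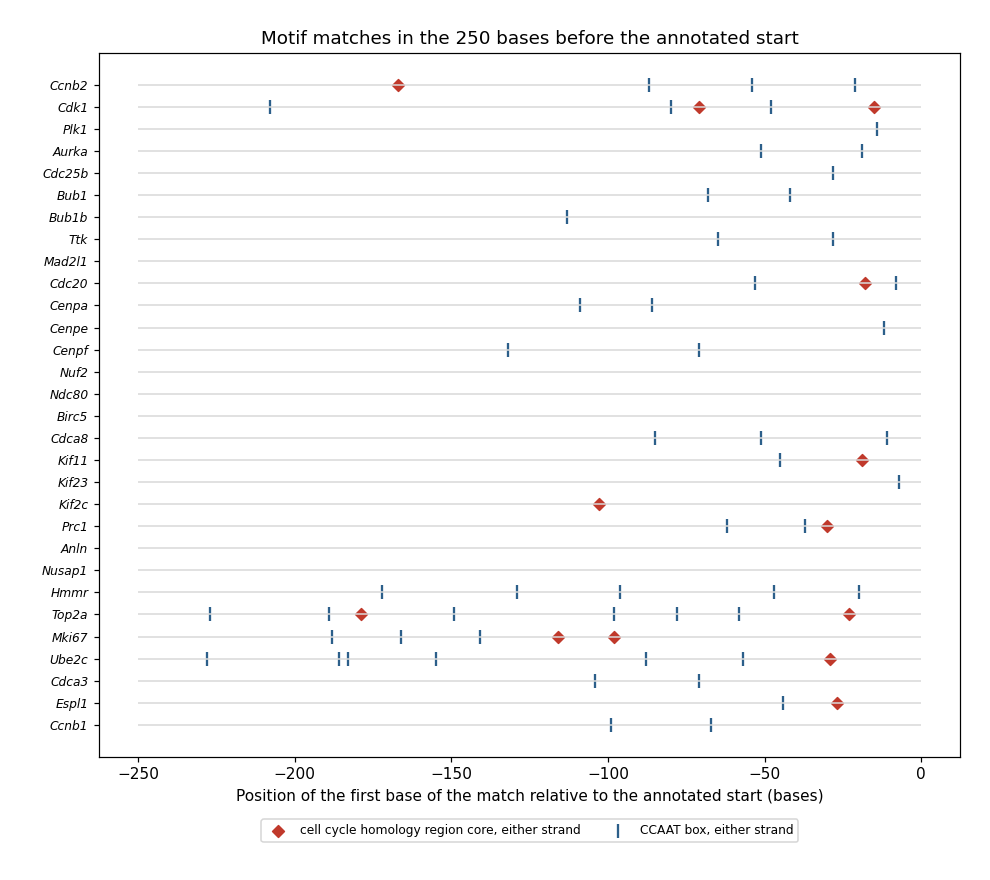
Matches to the cell cycle homology region core (diamonds) and the CCAAT box (bars) on either strand in the 250 bases before the annotated start, 1 row per gene for the 30 genes with a promoter sequence. The x axis is the position of the first base of a match. Diamonds gather between -30 and -15 in 7 genes. The row of Prc1 overlays 2 windows with different starts, so its CCAAT box is drawn at both distances.

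The array medians over all 35556 clusters lay between 6.94 and 6.98 (log2), which the quantile normalization in RMA makes alike whatever the samples. Pearson r was 0.995 between the Mbd4 KO arrays, 0.996 between the control arrays and 0.994 in each pair across groups. Of the 21789 clusters with a single symbol, 302 (1.39%) passed limma's threshold, an adjusted p of 0.05. Mbd4 had values of 6.47 and 6.49 in Mbd4 KO arrays against 8.74 and 8.77 in control arrays, a difference of -2.28 ± 0.066 (log2, SE; limma adjusted p = 0.0002). Both Mbd4 KO values were below the median of their array. Of 9 B cell markers measured, 8 lay between 10.37 and 12.68, above the upper quartile on all 4 arrays, while Ighm was dim (7.54 and 7.42, against 7.57 and 7.56). None of the 9 was called by limma, the largest differences being those of the inhibitory co-receptor gene Cd22 (0.44, adjusted p = 0.0843) and the adaptor gene Blnk (-0.28, adjusted p = 0.15). The 5 T cell markers measured lay between 5.14 and 7.01 on all arrays. Of 5 myeloid markers, which lay between 4.96 and 7.69, Adgre1 was called lower in Mbd4 KO arrays (6.58 and 6.67, against 7.69 and 7.68; limma adjusted p = 0.0031), and its part in other results was not tested.

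None of the 35 mitosis and spindle genes passed limma's threshold in either direction in Mbd4 KO cells. Their differences ran from -0.20 to 0.19 (log2, Mbd4 KO minus control), with 18 above 0 and 17 below. Their median was 0.013, beside 0.023 over all 19938 genes tested, of which 11551 lay above 0 and 8387 below. With 1 array left out, the member median ranged from -0.023 to 0.0018 and the median over all tested clusters from 0.015 to 0.025. The 95% intervals of limma, not adjusted for the number of genes, reached from 0.75-fold to 1.28-fold at their widest ends, so that all 35 lay inside a 1.5-fold change in either direction. At an unadjusted p of 0.05 limma passed 2 of them, Nuf2 and Espl1, where 13.8% of all tested clusters passed. The count of 0 members passing was the same under all 13 alternative settings. These differ in how many clusters pass at all, from 0 without moderation of the variance to 1121 with an intensity trend, so some could hardly have passed a member. The median size of the differences was 0.059, beside a median gap of 0.049 between the Mbd4 KO arrays and 0.066 between the control arrays. Over all tested clusters these were 0.082, 0.086 and 0.083. A difference between means of 2 arrays varies less than a gap between single arrays, so similar sizes do not make the differences equal to replicate spread. In 17 of the 35 the difference exceeded the gap in both groups, a larger share than the 33.1% of all tested clusters, and this was not tested. The groups did not overlap in 19 members, 7 higher and 12 lower in Mbd4 KO arrays, against a background of 45% of clusters (26.7% higher and 18.3% lower). The probes were bright: 34 members lay above the upper quartile of all clusters on all 4 arrays and Ndc80 on 3 of them.

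**Figure D2:**
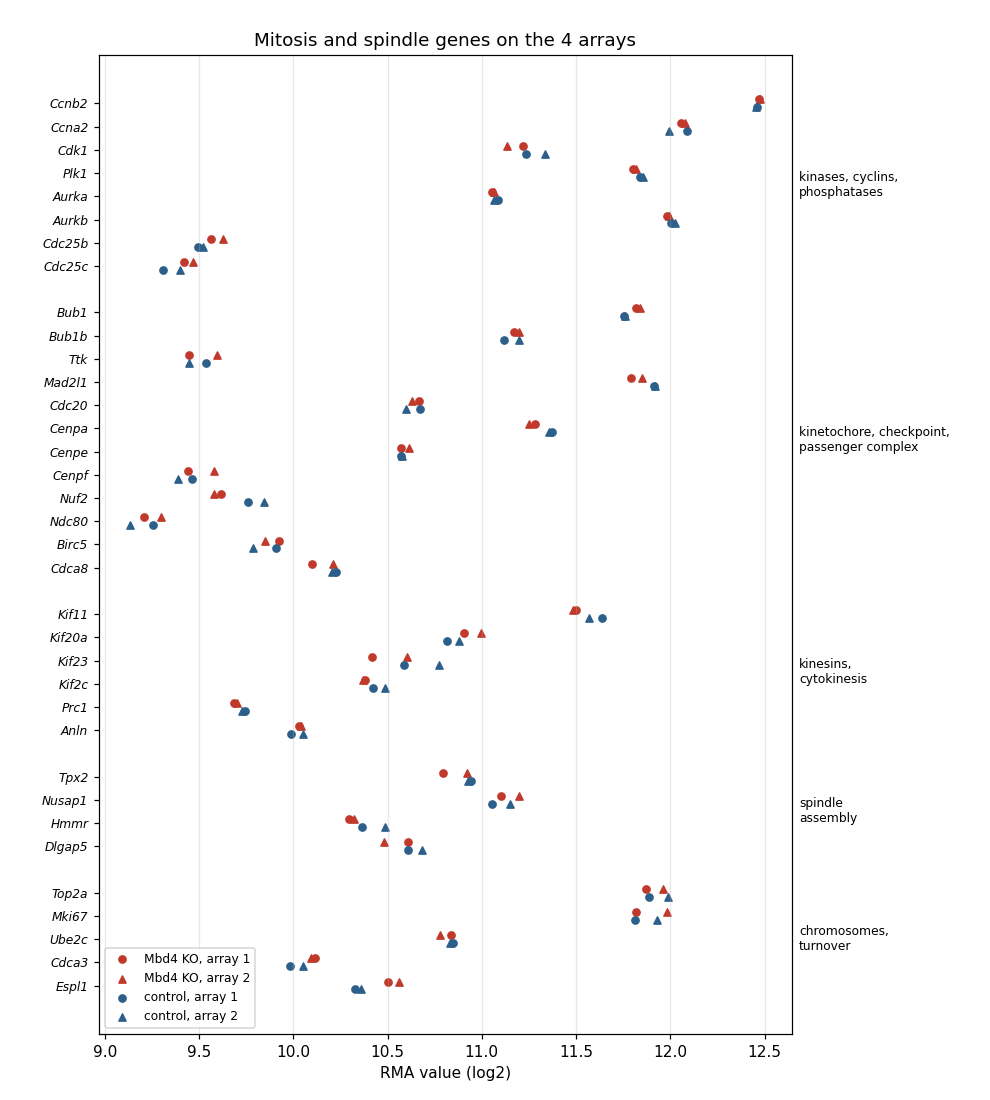
RMA values (log2, x axis) of the 35 measured mitosis and spindle genes on each array, with Mbd4 KO arrays in red above control arrays in blue and circles and triangles for arrays 1 and 2. Within each gene the 4 values lie close together, and the group means lie furthest apart in Nuf2, by -0.20. Values of different genes come from different probes and are not compared.

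Of the cyclins, kinases and phosphatases that trigger entry 8 were measured, 4 with differences above 0 and 4 below, from -0.11 to 0.089, and their median was 0.0013. Ccnb2, which encodes cyclin B2, an activator of Cdk1, had 12.47 and 12.48 in Mbd4 KO arrays against 12.46 and 12.45 in control arrays. Ccna2, the cyclin A2 gene, needed in S phase and at entry, had 12.06 and 12.08 against 12.09 and 11.99. Thus the groups of Ccnb2 lay apart by 0.020 on average, with the gap of its replicates smaller still, while those of Ccna2 overlapped.

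Cdk1, the kinase that drives mitosis, had 11.22 and 11.13 in Mbd4 KO arrays against 11.24 and 11.33 in control arrays. Its difference, -0.11 ± 0.075 (log2, SE; limma adjusted p = 0.595), was the furthest from 0 in this group, and its 95% interval ran from -0.29 to 0.077. Both Mbd4 KO values lay below both control values, with Mbd4 KO array 1 close beside control array 1. Plk1, the polo-like kinase of centrosome maturation and cytokinesis, had 11.80 and 11.82 against 11.84 and 11.86, a difference of -0.038 with an interval from -0.20 to 0.12. Aurka, the centrosomal Aurora kinase gene, had 11.05 and 11.06 against 11.08 and 11.07. Aurkb, the catalytic subunit of the chromosomal passenger complex, had 11.98 and 11.99 against 12.01 and 12.03. For these 3 kinases the groups did not overlap, yet the differences were no larger than 0.038 in size.

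The phosphatases that switch Cdk1 on lay the other way. Cdc25b had 9.56 and 9.63 in Mbd4 KO arrays against 9.49 and 9.52 in control arrays (difference 0.088), and Cdc25c had 9.42 and 9.47 against 9.31 and 9.40 (difference 0.089). Neither passed (limma adjusted p = 0.633 and 0.647), and both intervals included 0. In all, 7 of the 8 genes had values that did not overlap between Mbd4 KO and control arrays, 3 higher and 4 lower, against 45% of all tested clusters (26.7% higher and 18.3% lower). Ccna2 was the exception.

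Among 12 kinetochore, checkpoint and passenger complex genes the median difference was 0.022, with 8 above 0 and 4 below. Nuf2 and Ndc80 encode partners in the NDC80 complex, the main microtubule contact of the kinetochore. Nuf2 had 9.62 and 9.58 in Mbd4 KO arrays against 9.76 and 9.84 in control arrays. Its difference of -0.20 ± 0.070 (log2, SE), or 0.87-fold, was the lowest of all members. Its unadjusted 95% interval, -0.37 to -0.031, left out 0, but limma gave an adjusted p of 0.288 over all clusters. Ndc80 had 9.21 and 9.30 against 9.26 and 9.14, and its groups overlapped (difference 0.055). The partners thus lay on opposite sides of 0, and the difference between them was not tested.

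The checkpoint genes spread on both sides of 0 as well. Mad2l1, whose product binds and holds Cdc20, had 11.79 and 11.85 in Mbd4 KO arrays against 11.91 and 11.92 in control arrays (-0.097, interval -0.26 to 0.067). Bub1, a kinase that marks the centromere, had 11.82 and 11.84 against 11.76 and 11.76 (0.072, interval -0.088 to 0.23). Bub1b, which encodes the checkpoint inhibitor BubR1, had 11.17 and 11.20 against 11.12 and 11.20, so that its groups overlapped. The checkpoint kinase gene Ttk (Mps1) gave 9.45 and 9.60 against 9.54 and 9.45 and its groups overlapped too. Cdc20, the target of the checkpoint, had 10.67 and 10.63 against 10.67 and 10.60 and the smallest difference of all members in size, 0.013 ± 0.069 (log2, SE; interval -0.16 to 0.18).

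Cenpa, the centromeric histone H3 variant, had 11.28 and 11.25 in Mbd4 KO arrays against 11.37 and 11.36 in control arrays, a difference of -0.097 (limma adjusted p = 0.583) with no overlap. Cenpe, a kinesin that aligns chromosomes, differed by 0.016, and Cenpf, a large kinetochore and nuclear matrix protein gene, by 0.083, each with overlapping groups. The passenger complex genes Birc5 (survivin) and Cdca8 (borealin) differed by 0.040 and -0.059, also with overlap. In this functional group 4 of 12 genes had groups that did not overlap, 1 higher (Bub1) and 3 lower (Nuf2, Mad2l1 and Cenpa), where 45% of all tested clusters did not overlap (26.7% higher and 18.3% lower).

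The 6 kinesin and cytokinesis genes had a median difference of -0.060, with 4 below 0. Kif23, the motor subunit of centralspindlin, had 10.42 and 10.60 in Mbd4 KO arrays against 10.59 and 10.77 in control arrays. Its difference of -0.17 ± 0.10 (log2, SE; limma adjusted p = 0.522) came with the widest interval of all members, -0.42 to 0.074, since its replicates lay 0.19 apart in each group and the groups overlapped. Kif11, the Eg5 motor that separates spindle poles, had 11.50 and 11.48 against 11.64 and 11.57, a difference of -0.11 ± 0.068 without overlap (adjusted p = 0.529). Kif20a, a motor of the central spindle, had 10.90 and 11.00 against 10.82 and 10.88 and stood on the other side (0.10, adjusted p = 0.597). The microtubule depolymerase gene Kif2c (-0.080), the midzone bundler gene Prc1 (-0.040) and the anillin gene Anln (0.018) completed the group.

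The 4 spindle assembly genes had the lowest median of the functional groups, -0.089, with 3 below 0. Hmmr, a microtubule-binding protein gene, had 10.29 and 10.32 in Mbd4 KO arrays against 10.36 and 10.49 in control arrays, a difference of -0.12 ± 0.075 (log2, SE; limma adjusted p = 0.547). Dlgap5 (HURP), which stabilises kinetochore fibres, had 10.61 and 10.48 against 10.61 and 10.68 (-0.10, adjusted p = 0.632). Tpx2, the activator of Aurora A, had 10.79 and 10.92 against 10.94 and 10.93, so that Mbd4 KO array 1 alone stood apart. Nusap1, a microtubule bundling protein gene, lay at 0.048. The intervals of all 4 included 0.

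Of the remaining 5 genes, which act on chromosomes or on protein turnover, the proliferation marker Mki67 had 11.82 and 11.98 in Mbd4 KO arrays against 11.81 and 11.93 in control arrays. Its difference was 0.027 ± 0.088 (log2, SE; interval -0.19 to 0.24). Top2a, the topoisomerase that untangles sister chromatids, had 11.87 and 11.96 against 11.89 and 11.99 (-0.022, interval -0.21 to 0.16). In both genes array 2 of each group was the higher, and the spread within a group was larger than the difference between groups. A second cluster of Top2a, dim at 5.92 and 6.01 against 5.86 and 6.19, differed by -0.058 ± 0.12.

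Espl1, which encodes separase, the protease that opens cohesin at anaphase, had the highest difference of all members. It gave 10.50 and 10.56 in Mbd4 KO arrays against 10.32 and 10.36 in control arrays. The difference of 0.19 ± 0.068 (log2, SE), or 1.14-fold, had an unadjusted interval of 0.024 to 0.35 and a limma adjusted p of 0.302. Cdca3, a trigger of mitotic entry, had 10.11 and 10.09 against 9.98 and 10.05 (0.087, adjusted p = 0.637). Ube2c, the ubiquitin-conjugating enzyme of the APC/C, differed by -0.031 with overlapping groups.

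**Figure D3:**
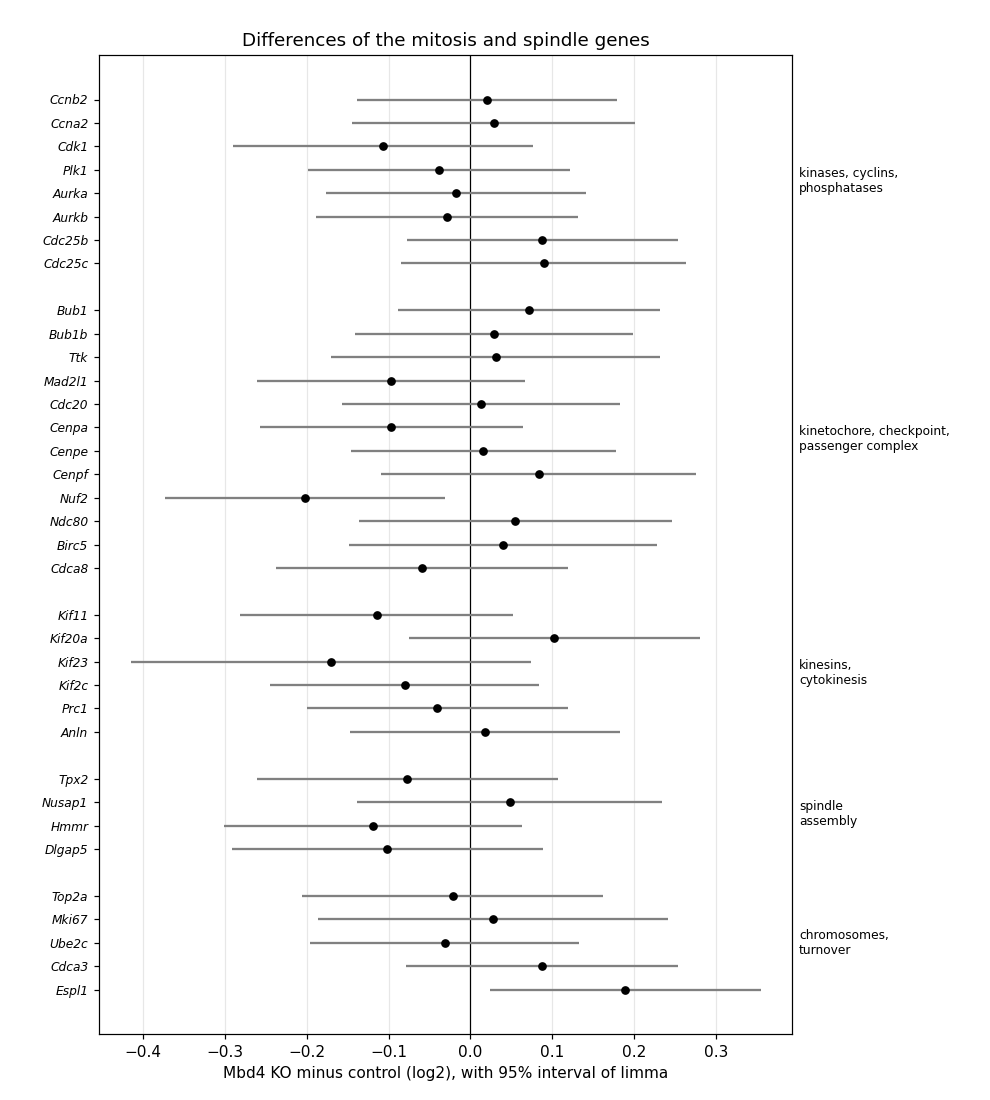
Difference of each mitosis and spindle gene (log2, Mbd4 KO minus control, x axis) with its 95% limma interval (n = 2 arrays per group), ordered by function. Points spread on both sides of 0 between -0.20 and 0.19, and the intervals of Nuf2 and Espl1 alone leave out 0.

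After each gene's mean over the arrays was taken away, the median of the 35 genes was -0.017 and 0.013 on the Mbd4 KO arrays and 0.0047 and 0.019 on the control arrays. Mbd4 KO array 1 was the lowest array for 11 members and the highest for 2, whereas Mbd4 KO array 2 was the lowest for 7 and the highest for 12. Control array 1 was the lowest for 10 and the highest for 9, and control array 2 the lowest for 7 and the highest for 12. Mbd4 KO array 1 was thus seldom the highest.

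Other genes of the cell cycle were read from the same fit, in 9 lists with 203 genes measured of 210. Of these, 0 were called higher and 2 lower in Mbd4 KO cells, beside 0.431% and 0.955% of all tested clusters. Ckap2, a spindle microtubule protein gene, had 7.80 and 7.75 in Mbd4 KO arrays against 8.28 and 8.23 in control arrays, and fell by 0.48 (log2; SE 0.068; limma adjusted p = 0.0415). Chaf1b, a chromatin assembly factor gene of S phase, had 9.93 and 9.90 against 10.33 and 10.39, and fell by 0.44 (SE 0.068; adjusted p = 0.0476). Both calls were lost with any 1 array left out, which leaves 1 array in a group: the differences were then -0.50 to -0.45 for Ckap2 (limma adjusted p = 0.182 to 0.207) and -0.47 to -0.41 for Chaf1b (0.189 to 0.247). They were also lost with quantile normalization (0.0549 and 0.0574), with all clusters of the table tested (0.187 and 0.194) and without moderation of the variance (0.292 and 0.298).

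Of the 2 called genes, Ckap2 lies on chromosome 8 and Chaf1b on chromosome 16, and the 30 genes nearest in order had median differences of -0.084 and -0.15. These chromosomes were singled out because earlier results of these data showed lower values in stretches of them. A low median of listed genes on them may thus follow from that choice. Over all genes tested, the median was 0.013 on chromosome 8 (961 genes), -0.11 on chromosome 16 (649 genes) and 0.026 on the others. Of the genes in the 9 lists, 16 lie on chromosome 8, with a median of -0.11 and 2 above 0, of which the replication licensing gene Cdt1 (0.24, adjusted p = 0.203) was chosen after its value was seen. The neighbours of these 16 were not all low: their medians ran from -0.13 (Gins4) to 0.057 (Mcm5). The 4 on chromosome 16 had a median of -0.30 with 0 above 0, and the other 183 a median of 0.0020, of which 0 passed. Of the 35 mitosis and spindle genes, which lie on 15 chromosomes, 0 are on chromosome 8 or 16, and the medians of their 30 neighbours ran from -0.0060 to 0.10. The part of chromosome position in these values was not tested.

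By function, the regulators of the mitotic programme (23 measured, median -0.013, 0 passed) held the E2F partners Tfdp2, with 8.89 and 8.89 in Mbd4 KO arrays against 8.50 and 8.50 in control arrays (0.39, limma adjusted p = 0.0587), and Tfdp1, with 11.29 and 11.30 against 11.54 and 11.55 (-0.25, adjusted p = 0.177). Tfdp1 is on chromosome 8. The 16 mitotic entry controls had a median of 0.016 and differences from -0.10 to 0.15, the most distant being the phosphatase subunit gene Ppp2r2d (0.15) and the checkpoint kinase gene Chek2 (0.13). Of the 18 genes of the APC/C with its enzymes and inhibitors (median 0.0022), the subunit gene Cdc16, on chromosome 8, differed by -0.39 (adjusted p = 0.0601) and the ubiquitin-conjugating enzyme gene Ube2d1 by 0.31 (adjusted p = 0.116). None of these passed.

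The 33 other kinetochore genes had a median of 0.0001, with Cenpw (0.19) and Spc24, of the NDC80 complex (0.15), furthest from 0. The 22 other kinesin, cytokinesis and spindle genes, which include Ckap2, had a median of -0.045, and Aspm, a spindle pole gene, differed by 0.15. Of 21 centrosome and gamma-tubulin genes (median 0.024), Tubgcp3, on chromosome 8, differed by -0.39 (limma adjusted p = 0.0773) and the centrosomal kinase gene Nek2 by -0.23. The 20 cohesin and condensin genes had a median of -0.021, with the condensin genes Ncaph (-0.13) and Ncapg2 (-0.13) furthest from 0. Of 14 G1 cyclin and inhibitor genes (median -0.082), Ccnd1, the cyclin D1 gene, had 10.73 and 10.79 in Mbd4 KO arrays against 10.50 and 10.42 in control arrays (0.31, adjusted p = 0.135), and Cdkn2a differed by -0.22. The 36 S phase genes had a median of -0.0081. Besides Chaf1b, the DNA polymerase epsilon subunit gene Pole2 stood at -0.35 (adjusted p = 0.109). Pole2 lies on chromosome 12, and the genes nearest to it in order had a median difference of -0.078. Those nearest to Ncapg2, on the same chromosome, had a median of 0.041. Low neighbours were thus not confined to chromosomes 8 and 16. In the S phase list 9 of 36 genes lie on chromosome 8 or 16, beside 1610 of all 19938 genes tested.

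**Figure D4:**
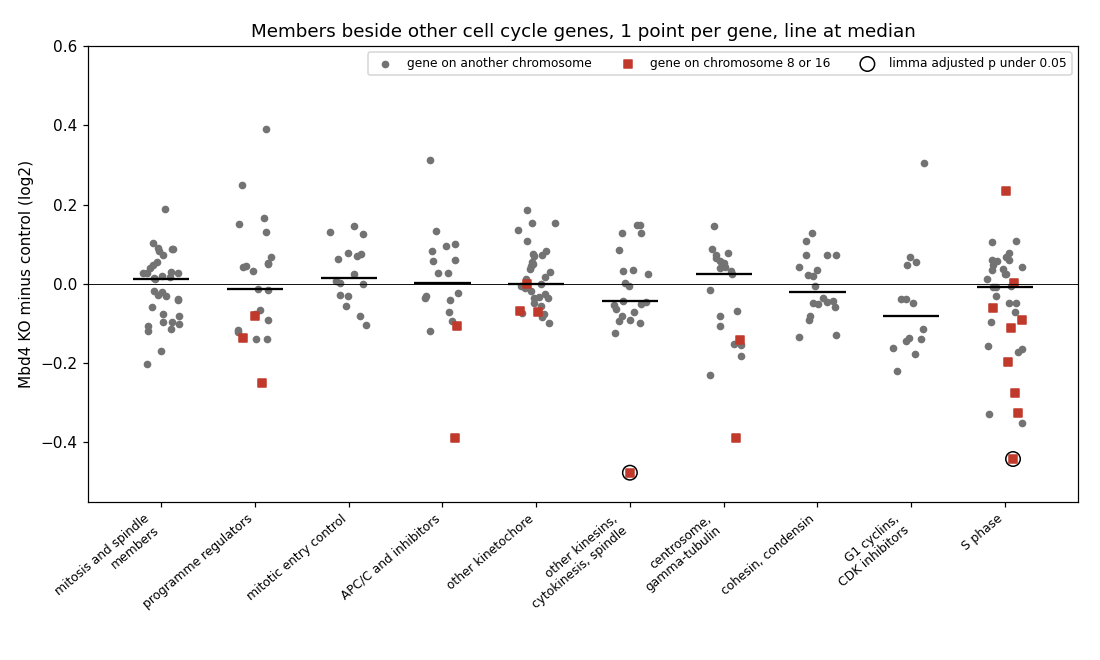
Difference between Mbd4 KO and control cells (log2, y axis) for each measured gene of the mitosis and spindle group and of 9 other cell cycle lists, with lines at the medians. Red squares are genes on chromosome 8 or 16 and circles mark Ckap2 and Chaf1b, the only calls among the genes drawn. The 35 members span -0.20 to 0.19 and hold no red square.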

How the data were processed

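Per the submitters' processing notes, the authors made the deposited log2 values with RMA, which corrects background, normalizes by quantiles and summarises probes, giving 1 value per transcript cluster and array. No source used here gives its version, settings or genome build. The scale is inferred from the range of the deposited log2 values. The labels' protocols describe Trizol extraction, column clean-up and whole-transcript labelling. Raw intensities were not used, and signal over background is thus not known.

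The platform's gene table paired 21789 of 35556 clusters with a single symbol, 1621 with several and 12146 with none listed. Only the first were tested and named, and a gene's value is its brightest cluster. Groups came from the sample titles. Mbd4 KO arrays were set against control arrays in limma (version 3.58.1, run in R version 4.3.3; lmFit, then eBayes, two-sided, no covariate), with Benjamini-Hochberg adjustment over all 21789 clusters and a threshold of 0.05. SE values and 95% intervals are limma's, with 2 residual and 4.00 prior degrees of freedom. Precision is limited by having 2 arrays a group, for which an exact permutation test (two-sided) of a single gene has a smallest p of 0.333. The script was tested on simulated data. Chromosomes and gene order came from RefSeq (GRCm38.p6), with 19 genes unplaced. Motifs were counted with Python 3.11.15 and figures drawn with matplotlib 3.10.9.

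All 36 listed genes are named, with array values for the 2 of largest difference in each functional group, for Cdk1, Plk1, Mki67 and Top2a, and for further members described with them. In each other list the 2 largest differences and any passing gene are named. The members, functional groups and lists were chosen with earlier results of these data known. No test over a list was made. Alternatives were a replicate block, each array left out, an intensity trend, a robust prior, no dim clusters (the lowest 30%), quantile and cyclic loess normalization, all clusters tested, a threshold of 0.1, no variance moderation, and averaging over clusters of 1 gene.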

Additional observations from a re-analysis of the deposited data

How the results depend on the processing

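The count of 0 mitosis and spindle genes passing held under all 13 alternatives, with lowest limma adjusted p among members from 0.0691 (intensity trend) to 0.522 (without control array 2). Differences of members stayed between -0.26 and 0.22, and intervals reached at most from -0.55 to 0.44 with 1 array left out. The count over all clusters was 302, and became 159 with the replicate block, 65 to 75 with 1 array left out, 1121 with an intensity trend, 640 without the dimmest 30% of clusters, 22 with all clusters tested, 593 at a threshold of 0.1 and 0 without moderation. The 2 calls in the other lists became 0 with the replicate block (limma adjusted p = 0.0764 for Ckap2 and 0.0911 for Chaf1b), with any 1 array left out, with quantile normalization, with all clusters tested and without moderation, 13 with an intensity trend, 9 without the dimmest 30% and 7 at a threshold of 0.1. The replicate block changed no other call among the members, the named genes of the other lists, Mbd4 and Adgre1. Adgre1 was not called with all clusters tested (limma adjusted p = 0.065) or without moderation (0.247). The labels give no source shared by arrays of equal number, so they were not treated as pairs. Deviations of same-numbered arrays had a Pearson r of 0.083 and a Spearman rho of 0.10 across clusters, and a Pearson r of 0.12 across the 35 members, which are not independent.

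With 1 array left out, the median over the members ranged from -0.023 to 0.0018. That of the kinases and cyclins ranged from -0.019 to 0.0068 (0.020 with quantile and 0.0072 with cyclic loess normalization). The median of the kinetochore genes ranged from -0.018 to 0.032 and that of the chromosome and turnover genes from -0.024 to 0.087. The medians of the kinesin and cytokinesis genes (-0.061 to -0.049) and of the spindle assembly genes (-0.103 to -0.059) kept their sign with 1 array left out. Members whose difference changed sign then were Ccna2 (-0.019 to 0.076), Bub1b (-0.012 to 0.069), Ttk (-0.044 to 0.11), Cdc20 (-0.025 to 0.051), Cenpe (-0.0070 to 0.039), Ndc80 (-0.0057 to 0.12), Birc5 (-0.021 to 0.10), Anln (-0.014 to 0.049), Nusap1 (-0.00085 to 0.097), Top2a (-0.071 to 0.028, and -0.23 to 0.11 for its dim cluster) and Mki67 (-0.055 to 0.11). Quantile normalization turned Aurka to 0.00061. None of these was called under any setting, the dim cluster of Top2a being absent where dim clusters were removed. Mbd4 kept its call in all settings but that without moderation (limma adjusted p = 0.153). Arrays of 2 per group limit what can be seen: the 95% intervals of single members span 0.32 to 0.49.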

Other observations

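The platform table pairs 2 further clusters with both Top2a and Hibadh, a mitochondrial dehydrogenase gene, so they were left out of the mitosis and spindle genes. In the fit over all clusters they differed by 0.085 ± 0.10 and 0.013 ± 0.11 (log2, SE, Mbd4 KO minus control), with limma adjusted p of 0.809 and 0.981.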
